A study of Mus musculus with 9 samples.

Results

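The translation initiation and elongation factors are the proteins that bring ribosomes to an mRNA, find its start codon and then move the ribosome along the coding sequence. The members were taken by symbol: every row that begins with Eif1 to Eif6 or with Eef1 or Eef2, plus the poly(A)-binding proteins Pabpc1 and Pabpc4 and the termination factors Etf1, Gspt1 and Gspt2, without the eIF2 kinases, the Y-linked copy of the eIF2 gamma subunit and pseudogenes. They made up 70 of the 36410 rows of the count table. Eif2c5 and Eif4e1b held a count of 0 in all 9 libraries, and the other 68 passed the filter on low counts. The rows of Eif3j1 and Eif3j2, near-identical copies, held equal counts in 8 libraries and differed by 1 count in the other library, so they were counted once, which left 67 measured members.

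Ribosome footprints were sequenced from 3 immortalized mouse striatal lines of strain C57/BL6, each kept as its own line, with 3 libraries per line from independent rounds of culture. The control line (STHdhQ7/Q7) carries knock-in Htt alleles with 7 glutamine codons, the HD-het line (STHdhQ7/Q111) carries 1 such allele and 1 allele with 111, and the HD-homo line (STHdhQ111/Q111) carries 2 alleles with 111. All lines were grown and harvested alike, with 10 min of cycloheximide, which holds elongating ribosomes in place, and fragments of 26 to 32 nt from the 80S monosome fraction. Each genotype is 1 cell line, so a difference of genotype and any other difference between lines cannot be told apart, and the p-values measure the spread between culture rounds of a line. In such a bulk measurement, a lower footprint count also cannot tell fewer cells using a gene from less use per cell.

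Library totals ran from 22504543 to 41888701 counts. Per 1e6 of these unscaled totals, 3 counts, the limit that a count of 0 allows, lay between 0.0716 and 0.133. This limit covered counting error only. All CPM values given below are counts scaled to a TMM-adjusted total of 1e6. Of the 9 markers of striatal neurons, 2 (Drd1 and Drd2) were at 0 in every library, and their summed level was 43.9 to 50.3 CPM in control, 46.9 to 50.9 in HD-het and 67.5 to 75.1 in HD-homo, most of it from Foxp1. The 5 general neuronal markers summed to 131 to 152 CPM over all libraries. The 5 neural precursor markers summed to 9584 to 9852, 9013 to 9839 and 5991 to 6526 CPM in control, HD-het and HD-homo, nearly all of it Vim, and the 4 others set the lines far apart. Nes had means of 399.6, 1086 and 7.01 CPM, Sox2 of 51.2, 33.9 and 2.26, Pax6 of 17.3, 24.8 and 0.0759 and Fabp7 of 1.12, 22.3 and 3.04 CPM in the same order. The 5 mesenchymal and smooth muscle markers summed to 6536 to 9155 CPM in control, 27393 to 29031 in HD-het and 5245 to 6693 in HD-homo. All 5 were higher in HD-het than in control, whereas in HD-homo Acta2 (4100.2 CPM in control, 267.5 in HD-homo), Tagln (535 and 47.5) and Cnn1 (4.63 and 2.35) were lower, Col1a2 (24.0 and 1027) was higher and Col1a1 was not called. Astrocyte markers summed to 2.29 to 3.86, 1.67 to 2.70 and 11.6 to 13.8 CPM, the last mostly Slc1a3, and those of oligodendrocytes, microglia and endothelium to between 0.113 and 2.18 CPM. These marker differences run with the lines, as do the differences of the factors below, and their part in the latter was not tested.

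As background, initiation begins when eIF2 delivers the initiator tRNA to the small ribosomal subunit, which eIF3 and the scanning factors eIF1 and eIF1A hold in an open form. The eIF4 factors bind the mRNA cap, unwind the leader and recruit this complex, and the guanine nucleotide exchange factor eIF2B returns eIF2 to its active form after each round. During elongation eEF1A brings aminoacyl-tRNAs, the eEF1B subunits recharge eEF1A with GTP, eEF2 moves the ribosome by a codon, and eIF5A helps at slow peptide bonds. Many of these mRNAs begin with a 5′ terminal oligopyrimidine (TOP) tract, through which the kinase mTORC1 is known to set their translation together with that of the ribosomal proteins.

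Footprints on the factors were lower in the HD-het line across most families, and in the HD-homo line they were spread around the control level. Against control, 39 of the 67 measured members were lower in HD-het and 1 was higher, Eif4g3, at an adjusted p under 0.05 in the edgeR quasi-likelihood test. Among all 12678 genes tested, 29.1% were lower and 31.0% higher in that comparison. The median log2 fold change of the members was -0.36, beside 0.02 for all genes. In HD-homo, 12 members were higher and 10 lower than control, where 23.3% of all genes were higher and 22.3% lower, and the members' median was 0.00. Between the mutant lines, 40 members were higher and 10 lower in HD-homo than in HD-het, beside 34.6% and 32.8% of all genes, and the median was 0.43. The 12 and the 40 both include Eef1akmt4 and the overlapping read-through row Eef1akmt4-ece2, whose fragments cannot be told apart. The 2 comparisons with control share the control libraries.

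The order of the libraries showed the same. In 39 of 67 members (58.2%) all 3 HD-het libraries lay below the other 6, as they did for 24.8% of all genes tested. The reverse, HD-het above the other 6 libraries, held for 3 members (Eif4g3, Eif2d and Eif3c), beside 24.2% of all genes. In 35 members both calls were made, lower in HD-het than in control and higher again in HD-homo, beside 21.9% of all genes. The mutant lines were called in opposite directions against control in 9 members (13.4%), beside 11.9% of all genes, a share near the background. Without control replicate 1 this count was 4 (Eif2b3, Eif3e, Eif3h and Eif4g3), beside 8.01% of all genes. A difference among the 3 lines in any direction was called in 54 members, or 80.6%, close to the 78.4% of all genes. In a separate count, 12 members (17.9%) were called in none of the 3 pairwise comparisons. The share of all genes called in none of them is not given here.

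**Figure D1:**
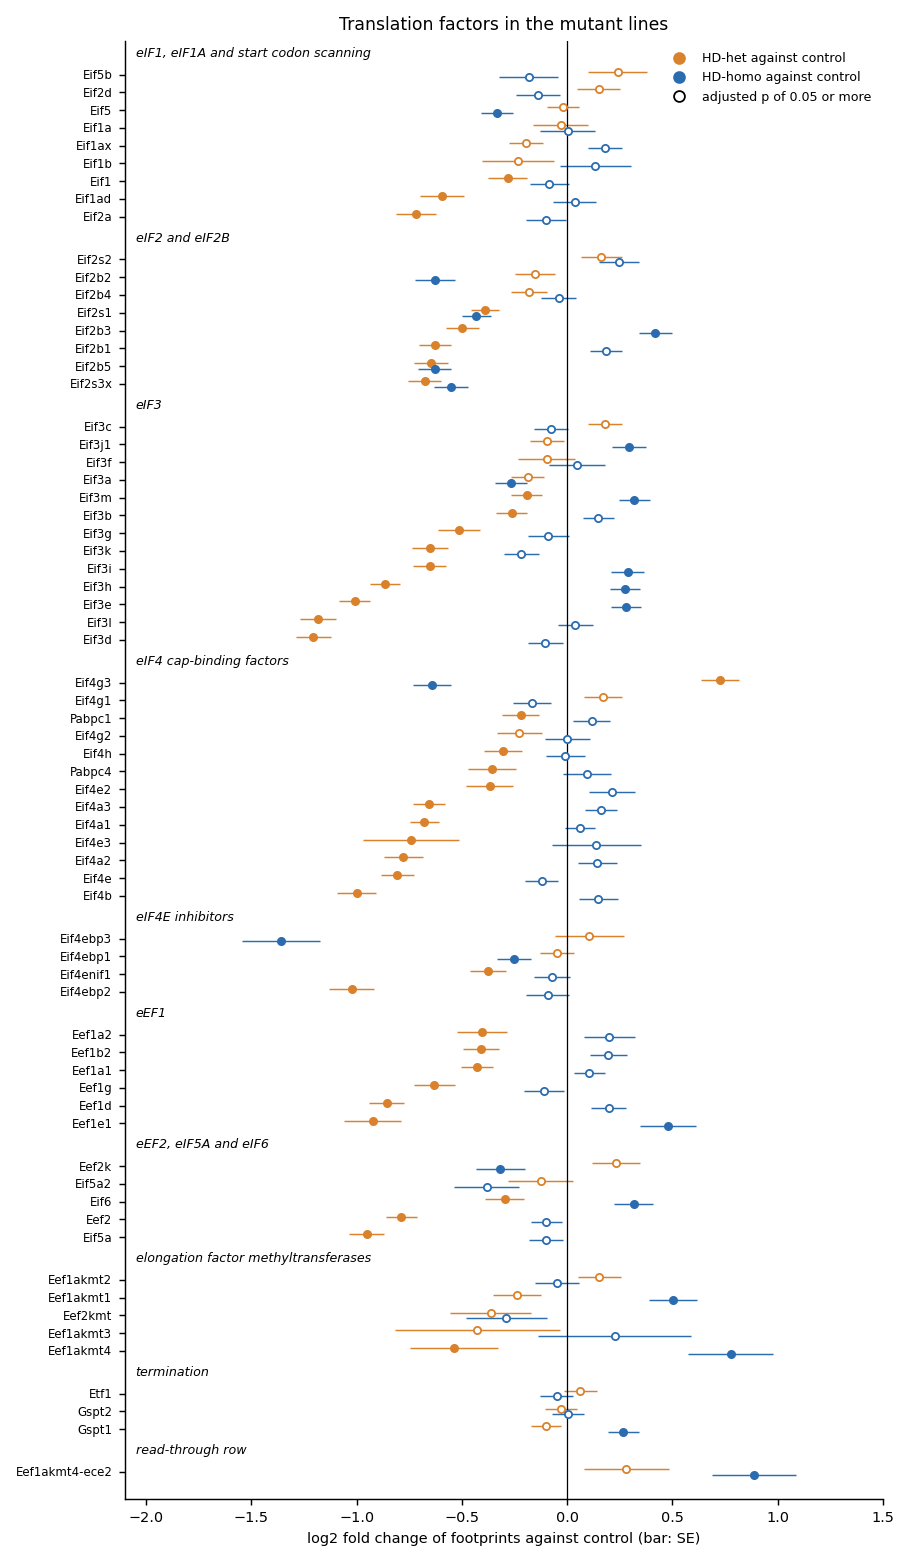
Each row is 1 of the 67 measured factors, grouped by family and ordered within it, with the log2 fold change of footprints against control on the x axis for HD-het (orange) and HD-homo (blue), bars giving the SE and open points an adjusted p of 0.05 or more. Of the orange points that passed the threshold, 39 lie left of 0 and 1, Eif4g3, lies right of it.

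Taken as a share of all footprints in a library, the members accounted for 4.35%, 4.34% and 4.46% of the counts in control, 3.02%, 3.09% and 2.89% in HD-het, and 4.51%, 4.57% and 4.62% in HD-homo. The HD-het libraries lay below every library of the other lines. Eef1a1 alone made up 1.22% ± 0.03 of all counts in control (SD, n = 3). Without Eef1a1 the members' share was still lower in HD-het, 2.08% to 2.16%, than in control, 3.12% to 3.23%, or in HD-homo, 3.22% to 3.25%.

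**Figure D2:**
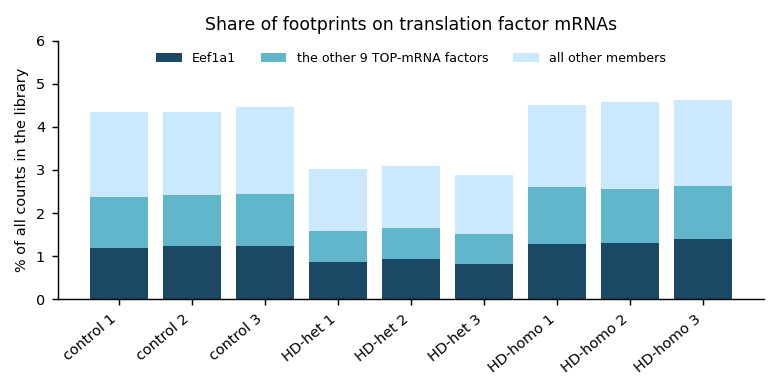
Stacked bars give the percentage of all counts in each of the 9 libraries that fell on Eef1a1, on the other TOP-list factors and on all other members. The 3 HD-het bars end between 2.89% and 3.09%, below those of control and HD-homo.

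The TOP list held 10 members known from the literature to have TOP mRNAs: Eef1a1, Eef1b2, Eef1d, Eef1g, Eef2, Eif3e, Eif3f, Eif3h, Eif4b and Pabpc1. In HD-het 9 of the 10 were lower than control, beside 29.1% of all genes, and Eif3f was not called. The median log2 fold change of the list was -0.71. Of the 57 measured members outside the list, 30 were lower and 1 higher, beside 29.1% and 31.0% of all genes. Their median was -0.30. In HD-homo the listed factors had a median of 0.13 against control. Of them Eif3e and Eif3h were higher (20%, near the 23.3% of all genes) and none was lower, beside 22.3% of all genes. The list summed to 2.38% to 2.44% of all counts in control, 1.51% to 1.65% in HD-het and 2.56% to 2.62% in HD-homo, and the other members to 1.91% to 2.03%, 1.39% to 1.44% and 1.91% to 2.01%. Both parts of the set thus had the HD-het libraries lowest, without overlap.

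Since the TOP tract is read at the very start of the mRNA, the bases around the annotated start are shown for the 5 listed members found in the RefSeq start table (GRCm38.p6), and for Eif3d and Eif3l, whose footprints fell most in HD-het, and Eif4g3, the member that rose there. Each line gives 10 bases before the start and 20 from it on, on the gene's own strand. Eif4g3 had 2 annotated starts, of which only the first listed is shown. Capitals mark the longest run that begins with C and continues for at least 4 further pyrimidines, and a line without capitals holds no such run.
Eef1a1, chr9:78481705-78481734, minus strand: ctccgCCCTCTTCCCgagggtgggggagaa
Eef1b2, chr1:63176821-63176850, plus strand: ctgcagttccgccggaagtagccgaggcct
Eef2, chr10:81176621-81176650, plus strand: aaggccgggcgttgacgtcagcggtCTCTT
Eif3f, chr7:108934405-108934434, plus strand: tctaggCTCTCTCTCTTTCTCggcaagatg
Eif4b, chr15:102073763-102073792, plus strand: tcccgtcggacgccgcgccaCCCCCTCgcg
Eif3d, chr15:77970805-77970834, minus strand: agggccatttacgacagcgctggtcgccgt
Eif3l, chr15:79075213-79075242, plus strand: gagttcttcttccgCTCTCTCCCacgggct
Eif4g3, chr4:137993445-137993474, plus strand: tccgagcggccgtcctgccggactgctgga

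The longest run within the lines shown, 15 bases, was that of Eif3f, the member of the TOP list that was not called lower in HD-het. The run of Eef2 reached the last base of its line, so its full length is not shown. Such a run was found in the 30-base window of 4 of these 5 TOP-list genes and in that of 39.6% of all 27025 genes with a start in the table. The table held starts for 51 members, of which 18 (35.3%) had a run on the gene's strand. Of the tested members lower in HD-het it was present in 13 of 30, and of the others in 4 of 20. On the opposite strand the shares were 15 of 30 and 10 of 20, beside 44.5% of all genes. These are matches of letters around annotated starts, described without a test, and the windows carry no measurement of where transcription begins in these lines.

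Among the elongation factors, all 6 members of the eEF1 list were lower in HD-het than control, as were 29.1% of all genes. Their median was -0.53. The HD-het libraries lay below all control libraries in each, a separation that 71.2% of all genes tested showed in one direction or the other. Eef1a1, which carries aminoacyl-tRNA to the ribosome, stood at 12011, 12227 and 12033 CPM in control, 8843, 9391 and 8736 CPM in HD-het and 12652, 12509.5 and 13861 CPM in HD-homo. The log2 fold change of Eef1a1 in HD-het was -0.43 ± 0.07 (SE; edgeR adjusted p = 0.00049), and in HD-homo it was 0.11 ± 0.07 (adjusted p = 0.27). HD-het was apart from both other lines, which lay close together. The paralogue of muscle and neurons, Eef1a2, was lower as well, at 159, 163 and 136 CPM in HD-het beside 220.5, 187 and 199 CPM in control (-0.40 ± 0.12, adjusted p = 0.013).

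The eEF1B subunits, which exchange the nucleotide on eEF1A, did not fall by equal amounts. Eef1d, the delta subunit, was measured at 1010.4, 963 and 898 CPM in control, 536, 487 and 561 CPM in HD-het and 1139, 1035 and 1119 CPM in HD-homo (-0.86 ± 0.08 in HD-het, adjusted p = 8.4e-06). For Eef1g, the gamma subunit that anchors the complex, the fall was -0.63 ± 0.10, and for Eef1b2, the beta subunit with exchange activity, -0.41 ± 0.09. Eef1e1 encodes a scaffold protein of the multi-aminoacyl-tRNA synthetase complex. It was lower in HD-het, at 43.9, 41.7 and 54.7 CPM, and higher in HD-homo, at 137, 101 and 133 CPM, than in control, at 85.9, 95.7 and 84.1 CPM. The HD-homo rise of 0.48 ± 0.13 (adjusted p = 0.012) was at an adjusted p of 0.0509 without control replicate 1.

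Eef2, the translocase, fell to 2775, 2874 and 2876 CPM in HD-het from 4839.8, 4925 and 4956 CPM in control, with 4893, 4382 and 4472 CPM in HD-homo. On the log2 scale HD-het differed from control by -0.79 ± 0.07 (adjusted p = 5.6e-06), with -0.10 ± 0.07 in HD-homo (adjusted p = 0.3). Eif5a, the hypusine-bearing factor that relieves slow peptide bonds, showed the largest fall of the elongation factors, to 1659, 1594 and 1758 CPM from 3344, 3051 and 3295 CPM. That was 1.93-fold lower (-0.95 ± 0.08, adjusted p = 3.9e-06), while HD-homo held 2849, 2921 and 3271 CPM. In both genes the HD-het libraries did not overlap with those of either other line. Eif6, which keeps the large subunit from joining too early, stood at 122 to 134 CPM in HD-het, 152 to 160.3 CPM in control and 168 to 210.4 CPM in HD-homo, and was called in both directions (-0.30 and 0.32 against control). The HD-homo call was lost without control replicates 1 or 2 or without HD-homo replicates 1 or 3, with an adjusted p of up to 0.0598.

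Per coding length the elongation factors led the set. In control, Eef1a1 stood at 8723 CPM per coding kb and Eif5a at 6992, followed by the helicase Eif4a1 at 2114, Eef2 at 1906 and Eif1 at 1668. In HD-het the same genes stood at 6486, 3615, 1322, 1104 and 1372 CPM per coding kb. Eif1, the gatekeeper of start codon choice, thus passed from below Eef2 to above it, its own fall being -0.28 ± 0.09 (adjusted p = 0.021). That call was lost without control replicates 1 or 2 or without HD-het replicate 3, with an adjusted p of up to 0.0579.

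**Figure D3:**
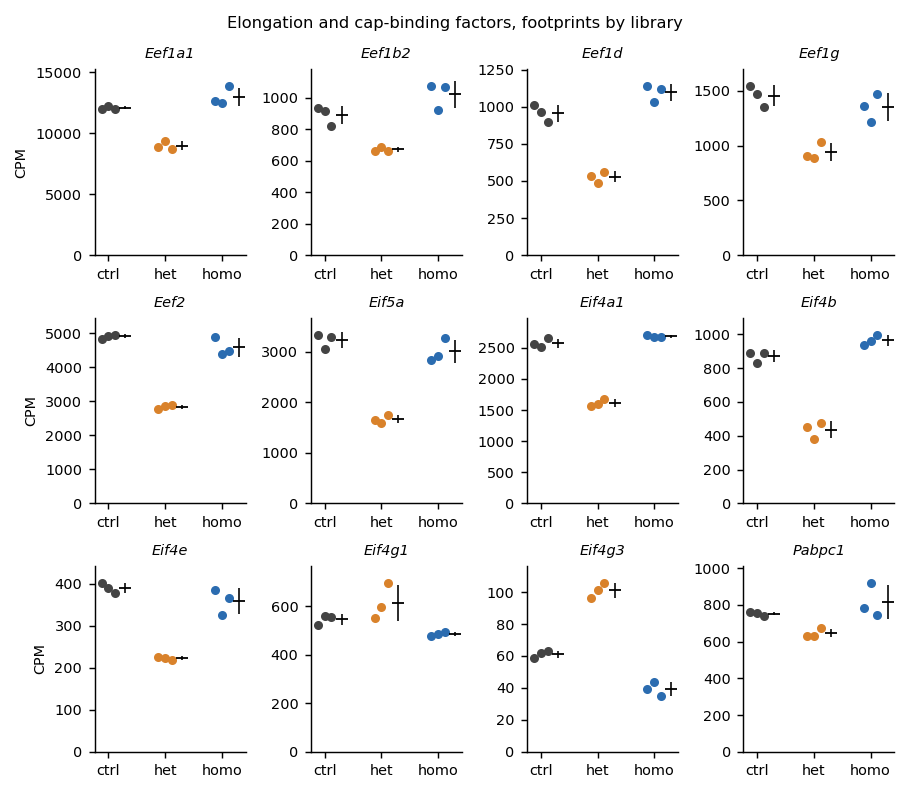
CPM in each of the 3 libraries of control, HD-het and HD-homo for 12 elongation and cap-binding factors, with the mean and SD beside the points and axes that start at 0. HD-het points lie below both other lines in all panels but those of Eif4g1 and Eif4g3; for Eif4g3 the order is HD-het, control, HD-homo from the top.

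The cap-binding group held the member that went against the rest. Of its 13 measured genes, 10 were lower in HD-het and Eif4g3 was higher, beside 29.1% of all genes lower and 31.0% higher. Eif4g3, a scaffold that joins the cap-binding protein to eIF3 and is a paralogue of Eif4g1, was measured at 58.6, 61.7 and 63.1 CPM in control, 96.1, 101 and 106 CPM in HD-het and 39.1, 43.5 and 35.0 CPM in HD-homo. It was 1.65-fold higher in HD-het (0.72 ± 0.09, adjusted p = 4.5e-05) and 1.56-fold lower in HD-homo (-0.64 ± 0.09, adjusted p = 0.00016), with no overlap between any of the lines. The main scaffold Eif4g1 was not called against control in either mutant line, at 521, 559 and 556 CPM in control, 551, 595 and 696 CPM in HD-het and 477, 486 and 495 CPM in HD-homo. Per coding length Eif4g1 was the more abundant of the pair in every line, with 114 CPM per coding kb in control against 12.9 for Eif4g3.

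The cap-binding protein Eif4e was lower in HD-het, with 227, 223 and 219 CPM beside 402, 389 and 379 CPM in control (-0.81 ± 0.08, adjusted p = 8.6e-06) and 384, 326 and 365 CPM in HD-homo. The helicase of the cap complex, Eif4a1, stood at 2566, 2508 and 2653 CPM in control, 1558, 1589 and 1683 CPM in HD-het and 2713, 2674 and 2675 CPM in HD-homo, a change of -0.68 ± 0.07 in HD-het (adjusted p = 1.2e-05). Its paralogues fell with it, Eif4a2 by -0.78 and Eif4a3, which works in the exon junction complex, by -0.66 on the log2 scale. The largest fall of the group was that of Eif4b, the cofactor that stimulates this helicase, from 888, 830.0 and 891 CPM in control to 453, 379 and 473 CPM in HD-het (just under 2-fold lower, adjusted p = 5.2e-06), beside 934, 961 and 998 CPM in HD-homo. In none of these genes did an HD-het library reach the range of another line.

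The poly(A)-binding proteins moved less. Pabpc1 stood at 741 to 762 CPM in control and 632 to 673 CPM in HD-het (-0.22 ± 0.09, adjusted p = 0.047). That call was lost without any control library or without HD-het replicates 1 or 2, with an adjusted p of up to 0.105. Pabpc4 was at 76.0, 79.0 and 105 CPM in HD-het, where replicate 3 lay nearer to the control libraries, at 109.6, 111 and 112 CPM, than the others did (-0.36 ± 0.11, adjusted p = 0.017). Without HD-het replicates 1 or 2 the adjusted p for Pabpc4 rose to up to 0.0655.

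Among the inhibitors that sequester eIF4E, the 3 binding proteins each had a pattern of their own. Eif4ebp1, the best-known mTORC1 substrate, was at 75.4 to 77.9 CPM in control and 68.0 to 77.7 CPM in HD-het, an overlap (-0.05 ± 0.08, adjusted p = 0.62). In HD-homo it was lower, at 64.1 ± 3.63 CPM (SD, n = 3), than in control (-0.25 ± 0.08, adjusted p = 0.024) and than in HD-het (-0.20 ± 0.08, adjusted p = 0.041). The first of these calls was lost without any 1 control library or HD-homo replicate 1 and with total counts (adjusted p up to 0.0811), and the second without any 1 library other than replicate 3 of either mutant line and under 4 other settings, the replicate block among them (adjusted p up to 0.253). Eif4ebp2, the form most abundant in brain, fell from 18.7, 21.1 and 22.0 CPM to 10.6, 10.6 and 9.17 CPM in HD-het, 2.03-fold (-1.02 ± 0.11, adjusted p = 1.1e-05), with 20.4, 19.5 and 18.1 CPM in HD-homo. Eif4ebp3, a low-level gene here, was lower in HD-homo too, at 0.862, 0.727 and 0.798 CPM beside 1.87, 2.14 and 2.14 CPM in control (-1.36 ± 0.18, adjusted p = 0.00011) and 2.32, 2.04 and 2.32 CPM in HD-het. The eIF4E transporter Eif4enif1 was lower in HD-het by -0.37 (log2).

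eIF3, the largest initiation factor with 13 distinct subunits, fell unevenly across its subunits in HD-het. In HD-het 9 of 13 were lower and none higher, beside 29.1% and 31.0% of all genes, with a median of -0.51. Of the 4 members of the whole set that were lower by at least 2-fold, 3 were eIF3 subunits and the other was Eif4ebp2. The share of all genes lower by at least 2-fold is not given here, so this count has no background beside it. The subunits Eif3d, Eif3l, Eif3e and Eif3h fell most. Eif3d, which can itself bind the cap of certain mRNAs, went from 588, 555 and 610.2 CPM in control to 248, 241 and 270.5 CPM in HD-het, 2.31-fold lower (-1.21 ± 0.08, adjusted p = 7.8e-07), and stood at 538, 509.5 and 584 CPM in HD-homo. Eif3l was at 668, 692 and 702 CPM in control, 292, 294 and 322 CPM in HD-het and 778, 655 and 687 CPM in HD-homo (-1.18 ± 0.09 in HD-het, adjusted p = 1.0e-06). For Eif3e, to which Eif3d binds in the assembled complex, the values were 861, 883 and 869.6 CPM in control, 414, 433 and 452 CPM in HD-het and 1058, 1011 and 1104 CPM in HD-homo. Against control it differed by -1.01 ± 0.07 in HD-het (adjusted p = 1.0e-06) and by 0.28 ± 0.07 in HD-homo (adjusted p = 0.0084). In these genes the HD-het libraries lay far below those of either other line.

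Eif3h was lower in HD-het by -0.86 and higher in HD-homo by 0.27 (log2), and Eif3i had the same order, with -0.65 and 0.29. The HD-homo rise of Eif3i was at an adjusted p of 0.0591 without control replicate 1. Eif3k (-0.65), Eif3g (-0.51) and the scaffold subunit Eif3b (-0.26) were lower in HD-het and not called in HD-homo. Eif3m was lower in HD-het (-0.19 ± 0.07, adjusted p = 0.041), a call lost without any control library or without HD-het replicates 1 or 3 (adjusted p up to 0.112), and higher in HD-homo by 0.32. The remaining subunits were not called in HD-het. Eif3a, the largest subunit, stood at 1022 to 1111 CPM in control and 880.2 to 992 CPM in HD-het (-0.19 ± 0.08, adjusted p = 0.053), and Eif3c, its partner in the core of the complex, at 887 to 925 CPM and 964 to 1075 CPM (0.18 ± 0.08, adjusted p = 0.07). Each passed the threshold under 5 of the alternatives run, DESeq2 among them, Eif3a as lower (lowest adjusted p 0.018) and Eif3c as higher (0.027). Eif3f had overlapping libraries in all lines (-0.10 ± 0.13 in HD-het, adjusted p = 0.54). Eif3j1, the loosely bound subunit, was not called in HD-het and was higher in HD-homo (0.29 ± 0.08, adjusted p = 0.012; 0.0613 without control replicate 2).

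Per coding length, the eIF3 subunits in control spanned 166 CPM per coding kb (Eif3j1) to 845 (Eif3h). In HD-het the range was 151 (Eif3i) to 464 (Eif3h). Over the 13 subunits the median was lowest in HD-het, at 250.0, beside 355 for control and 331 for HD-homo. Eif3d and Eif3c were close per coding length in control, at 355 and 333 CPM per coding kb, and apart in HD-het, at 154 and 377.

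**Figure D4:**
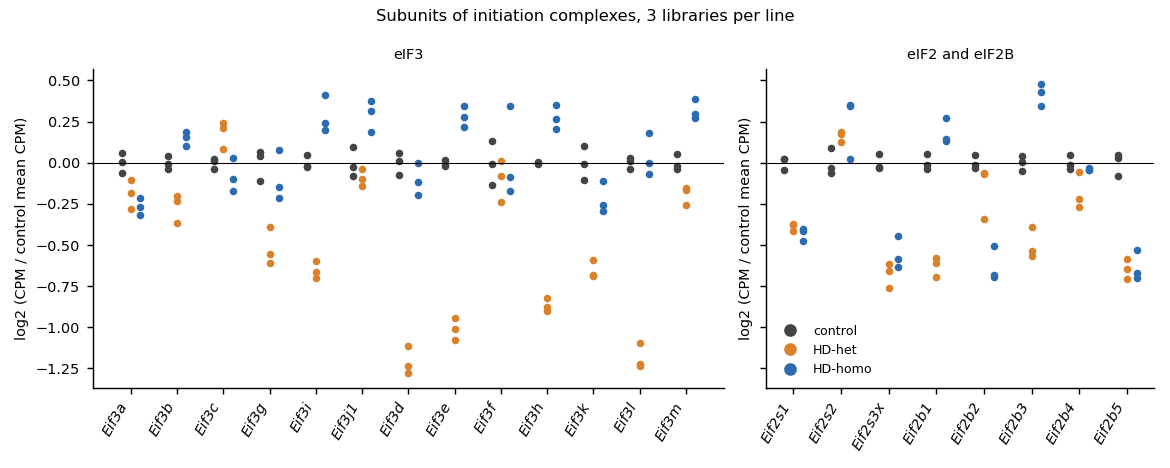
For each subunit of eIF3 (left) and of eIF2 and eIF2B (right), the 3 points of each line give the log2 ratio of a library's CPM to the control mean. HD-het points reach below -1 for Eif3d, Eif3e and Eif3l and stay near 0 for Eif3a, Eif3c and Eif3f, and for Eif2s1, Eif2s3x and Eif2b5 both mutant lines lie below 0.

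The eIF2 and eIF2B genes included falls in both mutant lines. Of the 67 members 3 were lower than control in both lines, Eif2s1, Eif2s3x and Eif2b5, beside 7.46% of all genes, and none was higher in both. Eif2s1 encodes the alpha subunit, whose phosphorylation blocks eIF2B. Its level was 452, 453 and 432 CPM in control, 342, 345 and 334 CPM in HD-het and 334, 320.4 and 337 CPM in HD-homo (-0.39 ± 0.07 and -0.43 ± 0.07, adjusted p = 0.00049 and 0.00034). Eif2s3x, the X-linked gene of the GTP-binding gamma subunit, stood at 505, 538 and 509 CPM in control, 305, 327 and 338 CPM in HD-het and 379.6, 334 and 345 CPM in HD-homo (-0.68 ± 0.08 and -0.55 ± 0.08). In both genes all 6 mutant libraries lay below all control libraries. The beta subunit gene Eif2s2 was not called in either line, at 665 to 694 CPM in HD-het and 619 to 775 CPM in HD-homo beside 584 to 647 CPM in control (0.16 ± 0.10 and 0.25 ± 0.10, adjusted p = 0.16 and 0.054). In HD-homo the Eif2s2 difference passed the threshold without replicate 1 of that line, with a log2 fold change of 0.35 (adjusted p = 0.0053), and in DESeq2 with all libraries (0.24, adjusted p = 0.044). Per coding length Eif2s2 was the highest of the 3 subunits in each line, at 613 CPM per coding kb in control beside 472 for Eif2s1 and 365 for Eif2s3x, and at 727 beside 349.6 and 249 in HD-homo.

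The 5 subunits of eIF2B differed among themselves. Eif2b5, the catalytic subunit, was lower in both lines, at 77.1, 83.2 and 84.2 CPM in control, 49.9, 52.1 and 54.3 CPM in HD-het and 56.4, 51.3 and 50.3 CPM in HD-homo (-0.65 ± 0.08 and -0.63 ± 0.08, adjusted p = 4.4e-05 and 6.9e-05). Eif2b2, a regulatory subunit, was called lower in HD-homo, at 55.7, 49.2 and 48.8 CPM beside 78.4, 81.5 and 77.2 CPM (-0.63 ± 0.09, adjusted p = 0.00026), with 75.7, 75.4 and 62.3 CPM in HD-het. Eif2b3, which pairs with the catalytic subunit, moved in opposite directions, with 65.6, 66.8 and 73.9 CPM in HD-het, 97.3, 99.9 and 93.8 CPM in control and 135, 123 and 131 CPM in HD-homo (-0.50 ± 0.08 and 0.42 ± 0.08, adjusted p = 0.00023 and 0.0011). Eif2b1 was lower in HD-het by -0.63 (log2), and Eif2b4 was called in no comparison. Across the 8 genes of eIF2 and eIF2B, 5 were lower in HD-het, 4 were lower and 1 higher in HD-homo, and 2 were higher and 1 lower in HD-homo than in HD-het. Among all genes 29.1% were lower in HD-het, 22.3% lower and 23.3% higher in HD-homo, and 34.6% higher and 32.8% lower between the mutant lines.

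Of the 9 scanning and subunit-joining factors, 3 (33.3%) were lower in HD-het and none higher, beside 29.1% and 31.0% of all genes. The share that was lower was thus near the background. The 3 were Eif1, a call lost with some libraries left out, Eif2a (-0.72), which can bring initiator tRNA without GTP, and Eif1ad (-0.60). Eif5, which triggers GTP hydrolysis on eIF2, was lower in HD-homo by -0.33 (log2). Of the 3 termination genes, 0 were called in HD-het by edgeR or by DESeq2, and 0 had an unadjusted edgeR p under 0.05. By edgeR 29.1% of all genes were lower and 31.0% higher there, and 3 genes are too few to set against these shares. Etf1, the release factor that reads stop codons, had overlapping libraries in all lines, at 375 to 437 CPM in HD-het, 374 to 383 CPM in HD-homo and 379 to 406 CPM in control. Its GTPase partner Gspt1 was higher in HD-homo (394 to 439 CPM) than in control (331 to 349.7 CPM), by 0.27 ± 0.07 (adjusted p = 0.011).

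Of the 5 measured methyltransferases that modify elongation factors, Eef1akmt1 (0.50, log2) and Eef1akmt4 were higher in HD-homo, as were 23.3% of all genes. Eef1akmt4 stood at 7.94, 8.54 and 7.67 CPM in control, 5.01, 6.08 and 5.53 CPM in HD-het and 16.2, 8.87 and 16.3 CPM in HD-homo. Its rise in HD-homo was 0.78 ± 0.20 (adjusted p = 0.0084). Replicate 2 of HD-homo lay near the control libraries in this gene. The read-through row Eef1akmt4-ece2, which overlaps Eef1akmt4 and Ece2, had the same 2 high HD-homo libraries, at 13.5, 7.69 and 13.2 CPM beside 6.15, 6.8 and 5.57 CPM in control, and fragments of these overlapping rows cannot be told apart.

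Ratios between paralogues within a library do not depend on library size. Of 11 pairs listed, 10 could be tested for a difference among the lines with an exact permutation test over the 9 libraries, in which the smallest possible p is 0.00357, and p-values were adjusted over the 10 pairs. Eif5a over Eif5a2, a paralogue known as an oncogene, was 145, 164 and 153 in control, 84.3, 69.9 and 116 in HD-het and 185, 202 and 175 in HD-homo (exact p = 0.00357, adjusted p = 0.018). The lines did not overlap in this ratio, and HD-het was lowest. For Eif4g1 over Eif4g3 the ratio was 8.88, 9.07 and 8.81 in control, 5.73, 5.88 and 6.58 in HD-het and 12.2, 11.2 and 14.2 in HD-homo (exact p = 0.00357, adjusted p = 0.018), again with no overlap. Eif4ebp1 over Eif4ebp2 rose to 7.36, 7.16 and 7.41 in HD-het from 4.06, 3.69 and 3.43 in control, with 2.94, 3.36 and 3.71 in HD-homo (exact p = 0.011, adjusted p = 0.027). Gspt1 over Gspt2 differed by less, with 6.51, 6.73 and 6.20 in control, 5.96, 6.24 and 6.31 in HD-het and 7.89, 7.17 and 8.27 in HD-homo (exact p = 0.011, adjusted p = 0.027). Here only HD-homo stood apart from control. With permutations kept within replicate numbers, neither Eif4ebp1/Eif4ebp2 nor Gspt1/Gspt2 passed (exact p = 0.0556 for each). With replicate 1, 2 or 3 left out of every line the smallest possible exact p is 0.0667, so none of the 4 can pass the threshold there.

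The other 6 pairs, among them Eef1a1 with Eef1a2, Eif4a1 with Eif4a2 and Pabpc1 with Pabpc4, had exact adjusted p-values of 0.207 to 0.750. The Eef1a1 over Eef1a2 ratio, for example, was 54.5, 65.6 and 60.5 in control and 55.8, 57.7 and 64.1 in HD-het, which overlap. The level of Eif1a against its near-identical copy Eif1ax depends on how shared fragments were assigned, which is not given in the sources used here.

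**Figure D5:**
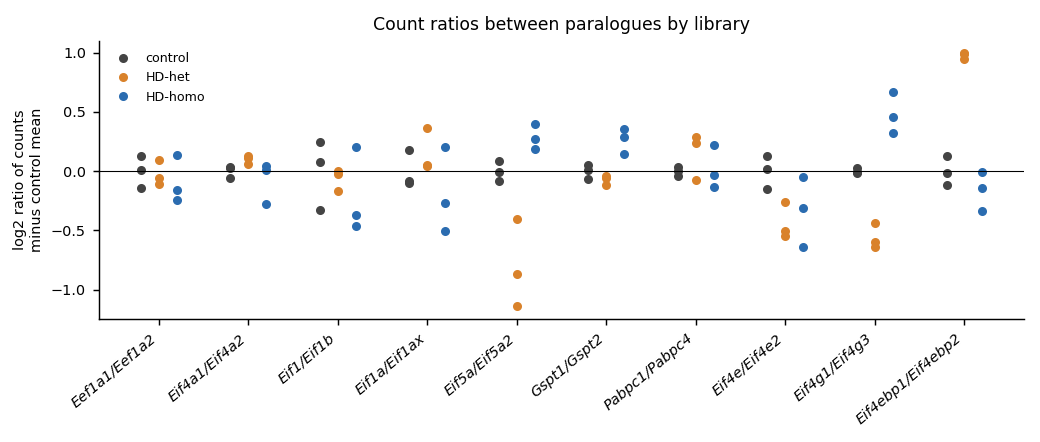
For 10 pairs of paralogues, each point is the log2 ratio of counts in a library minus the control mean of that ratio, in control (grey), HD-het (orange) and HD-homo (blue). The 3 lines separate for Eif5a/Eif5a2 and Eif4g1/Eif4g3, and HD-het lies above both other lines for Eif4ebp1/Eif4ebp2.

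Genes that act on these factors were read beside them. The 8 enzymes that make hypusine on eIF5A or diphthamide on eEF2 included 7 that were lower in HD-het and none higher, with a median log2 fold change of -0.70, where 29.1% of all genes were lower, beside 4 higher and 1 lower in HD-homo, where 23.3% and 22.3% of all genes were. HD-homo was higher than HD-het in all 8, as were 34.6% of all genes. Dohh, which completes the hypusine residue, stood at 44.5, 43.1 and 48.0 CPM in control, 20.5, 19.3 and 23.3 CPM in HD-het and 34.3, 27.8 and 27.1 CPM in HD-homo, and was lower in both lines (-1.11 ± 0.11 and -0.60 ± 0.11, adjusted p = 1.1e-05 and 0.0011). Dhps, which acts before it on the same lysine, was lower in HD-het (-0.54 ± 0.09) and higher in HD-homo (0.35 ± 0.09, adjusted p = 0.0061). Dph5, a methyltransferase of the diphthamide pathway, fell in HD-het from 31.1, 34.8 and 29.5 CPM to 15.3, 14.8 and 18.3 CPM (-0.99 ± 0.12, adjusted p = 3.1e-05).

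Of 21 regulators outside the set, 3 were higher and 9 lower in HD-het, and 4 higher and 1 lower in HD-homo. These are 14.3% and 42.9% in HD-het, beside 31.0% and 29.1% of all genes, and 19.0% and 4.76% in HD-homo, beside 23.3% and 22.3%. The eIF2 kinases did not move together. Eif2ak1 was called lower in HD-het and not called against control in HD-homo, and Eif2ak4 was called against control in neither line. Eif2ak3, the kinase PERK of the endoplasmic reticulum, was higher in HD-het, at 12.6, 10.8 and 15.4 CPM beside 7.87, 6.07 and 6.58 CPM (0.92 ± 0.16, adjusted p = 0.00045), and Eif2ak2, the double-stranded RNA kinase PKR, was higher in HD-homo, at 79.9, 87.5 and 96.9 CPM beside 57.6, 52.3 and 56.0 CPM (0.67 ± 0.09, adjusted p = 9.7e-05), and lower in HD-het by -0.32 (log2). Denr and Mcts1 encode the partners of a heterodimer that recycles small subunits and restarts ribosomes. Denr was lower in HD-het, at 195, 175 and 192 CPM beside 374, 349 and 381 CPM (-0.98 ± 0.11, adjusted p = 2.4e-05), and Mcts1 was higher (0.35 ± 0.12, adjusted p = 0.024). The Mcts1 call was lost without control replicates 2 or 3 or HD-het replicates 2 or 3, with an adjusted p of up to 0.106. Ppp1r15b was the other regulator called higher in HD-het. Abce1, the recycling ATPase, was lower in HD-het by -0.55 and the scanning helicase Dhx29 by -0.57 (log2).

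The factors of the mitochondrial ribosome, a separate machinery, had 1 higher and 5 lower of 10 in each mutant line, where 31.0% and 29.1% of all genes in HD-het and 23.3% and 22.3% in HD-homo were higher and lower. Tsfm and Tufm, the mitochondrial counterparts of the eEF1B and eEF1A functions, were lower in both, Tsfm by -0.79 and -0.38 and Tufm by -0.48 and -0.46 (log2, HD-het and HD-homo). Of 5 selenocysteine factors 1 was higher and 2 lower in HD-het, and 3 were higher and 1 lower in HD-homo, counts too small to set against the same shares.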

How the data were processed

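Per the labels, ribosome-protected fragments were made with RNases T1 and A and taken from the monosome peak of a sucrose gradient. The submitters' processing notes name cutadapt, Bowtie 1.0.1 and build mm10. The counting program, annotation, strand use and treatment of fragments that map to several places are not given in the sources used here, so counts of genes with near-identical copies are uncertain. The authors deposited raw counts per gene symbol, 1 column per library, without normalization. The matching mRNA libraries are not analysed here and values are footprint abundances. Symbols, coordinates and starts came from RefSeq (GRCm38.p6), which held all 70 members, and coding lengths from a principal coding model of each gene, given for 67 members.

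Counts of all 12678 genes that passed filterByExpr were fitted in 1 model of the 3 lines with edgeR 4.0.16 (limma 3.58.1, R 4.3.3), with TMM factors and quasi-likelihood tests, with Benjamini-Hochberg adjustment over all of them. CPM used TMM-scaled totals. Tested on simulated counts of HD-het against control over 12518 genes, drawn with the same spread for all genes, the fit recovered 92.9% of 2-fold changes. Only 4 of the 39 members lower in HD-het reached 2-fold, and recovery of smaller changes is not given here. Paralogue ratios were compared by exact permutation over 1680 arrangements. Alternatives were other scalings and filters, DESeq2 1.42.0, fits to 6 libraries, a replicate block and leaving out each library.

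The members, lists and tests were chosen with earlier results of these data known. Genes were named if called with a log2 fold change of at least 0.58 in size and at least 10 CPM, up to 12 per direction and comparison, along with 10 core factors and the paralogues. Other members and regulators given with values were chosen after their values were seen.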

Additional observations from a re-analysis of the deposited data

Results flagged for a closer look

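In 9 members the mutant lines differed from control in opposite directions, beside 11.9% of all genes tested, a share near that of the members (13.4%), and the difference between the mutant lines was itself called in edgeR's quasi-likelihood test. In 8 of them HD-het was the lower line. The log2 difference of HD-homo minus HD-het was 1.29 for Eif3e and 1.14 for Eif3h, 0.94 for Eif3i and 0.51 for Eif3m, all subunits of eIF3. It was 0.92 for Eif2b3, the gamma subunit of eIF2B, 0.61 for Eif6, 1.40 for Eef1e1 and 1.31 for the methyltransferase Eef1akmt4. In Eif4g3 the order was turned, with -1.37. The smallest of these, Eif3m, had an adjusted p of 8.5e-05 between the mutant lines. In Eef1akmt4 the HD-het call against control (adjusted p = 0.044) was lost without any 1 of the 6 control and HD-het libraries, with an adjusted p of up to 0.119. Without control replicate 1 a call against control was lost in 5 of the 9, in HD-het for Eef1akmt4 and Eif3m and in HD-homo for Eef1e1, Eif3i and Eif6, which leaves 4: Eif2b3, Eif3e, Eif3h and Eif4g3.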

How the results depend on the processing

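Of the 115 gene-level calls followed through the alternatives, 96 were kept under every alternative run, and the 19 others were lost under at least 1. In this tally alone Eif3j1 and Eif3j2, which hold the same fragments, were entered as separate rows. The count of members lower in HD-het was 34 to 41 with 1 library left out, 40 in DESeq2, 36 with the replicate number as a block and 4 with a change of at least 2-fold. The count higher in HD-het, 1 in the main test, was 2 with RLE size factors, with at least 10 counts in every library and in DESeq2, 3 with only the 6 libraries compared, 1 to 2 with a library left out (2 without HD-het replicate 2 or HD-homo replicate 2) and 0 at 2-fold or more. In HD-homo against control, 9 to 15 members were higher and 7 to 12 lower with a library left out, 7 were higher at an adjusted p under 0.01, and 0 were higher and 1 lower by at least 2-fold. In HD-homo against HD-het, 39 to 42 were higher and 6 to 11 lower with a library left out (6 lower without HD-het replicate 1), 6 were lower with total counts and 6 at an adjusted p under 0.01, and 8 were higher and 2 lower by at least 2-fold. Opposite calls against control in the mutant lines were made in 4 to 12 members with a library left out, beside 8.01% to 12.4% of all genes. The count was 4 without control replicate 1, beside 8.01%. With a library left out, 3 to 5 members were lower in both lines, beside 5.63% to 7.95% of all genes. There were 5 without HD-het replicate 3 (beside 7.95%), with no filter (6.26%) and in DESeq2 (7.68%). For the other counts of this paragraph the shares of all genes under these settings are not given here.

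Same-numbered libraries of different lines had correlations of their deviations of -0.36 to 0.17, and libraries with different numbers had -0.28 to 0.38. With so few libraries per line, these ranges cannot settle whether a number marks a shared round. With the replicate number as a block, 1 member was higher and 36 lower in HD-het. Under permutation within replicate numbers the HD-het difference from control in log2 ratio stayed at -0.0701 for Gspt1/Gspt2 and 0.975 for Eif4ebp1/Eif4ebp2, with exact p-values of 0.0556. With a replicate left out, that difference was -1.01 to -0.59 for Eif5a/Eif5a2, -0.63 to -0.52 for Eif4g1/Eif4g3, -0.118 to -0.0421 for Gspt1/Gspt2 and 0.91 to 1.03 for Eif4ebp1/Eif4ebp2, and it crossed 0 for Eef1a1/Eef1a2 (-0.0753 to 0.0585) and Eif1/Eif1b (-0.174 to 0.0273).

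No called value changed sign. Values near 0 that did, with a library left out, were those of Eif1a (-0.158 to 0.0235 in HD-het, -0.137 to 0.120 in HD-homo, -0.103 to 0.154 between them), Eif1b in HD-homo (-0.00376 to 0.314), Eif2b5 between the mutant lines (-0.0338 to 0.0520), Eif3l in HD-homo (-0.0352 to 0.0924), Etf1 in HD-het (-0.00142 to 0.106) and Gspt2 in HD-homo (-0.0203 to 0.0316). With no filter Eif1a was -0.0172 and Gspt2 -0.0165 in HD-homo, and with only the 6 libraries compared they were -0.00554 and -0.00281. Between the mutant lines, Eif2b5 was -0.00190 with RLE size factors, -0.000600 in DESeq2, -0.0103 with at least 10 counts in every library and -0.0132 with 6 libraries, and Eif2s1 was 0.0347 with total counts. The cause was not tested. Depth limits the low members most: those under 1 CPM, such as Eef1akmt3, rest on few counts.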
